A study of Mus musculus with 44 samples.

Results

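Jarid2 and 9 genes of Polycomb repressive complex 2 (PRC2) and of the opposing H3K27 demethylases were followed in mouse ovarian follicles exposed to PFNA (perfluorononanoic acid, a perfluorinated fatty acid of the PFAS group). Members were the rows carrying the symbols Jarid2, Ezh1, Ezh2, Eed, Suz12, Aebp2, Mtf2, Phf19, Kdm6a and Kdm6b, which gave 10 of the 22674 genes of the maturation table and 10 of the 18274 genes of the ovulation table. The set was chosen because Jarid2 was lower with PFNA in the ovulation window and not in the maturation window, so the Jarid2 values are a description without a test, and the remaining members were added for their roles in the complex with earlier results of these data known. Follicles came from wild-type CD-1 mice, an outbred strain. The maturation window covers follicle growth that depends on gonadotropins and compares 11 libraries treated with DMSO, the solvent, with 10 treated with PFNA. The ovulation window compares 12 libraries treated with hCG (human chorionic gonadotropin, a hormone that acts on the luteinizing hormone receptor and triggers ovulation) with 11 treated with hCG and PFNA, so that both of its groups had received hCG. Dose, exposure time, age and batch are not given in the sources used here. Nothing states that the libraries of a group came from separate animals or cultures, so p-values measure the spread between these libraries, which may be technical.

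PRC2 places methyl groups on lysine 27 of histone H3 (H3K27), a mark of silenced genes. Its catalytic subunit is EZH2 or EZH1, EED and SUZ12 form the core with it, and a given complex holds either JARID2 with AEBP2 or a Polycomb-like protein such as MTF2 or PHF19. KDM6A (UTX) and KDM6B (JMJD3) remove the mark. EZH2 is most abundant in dividing cells, whereas EZH1 is also present in resting cells, and granulosa cells divide in the growing follicle and leave the cell cycle after the ovulatory hormone surge.

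Promoter sequences are shown for 3 members because their start sites lie at the gene starts of the ovulation table and because the members differ in their response there. Jarid2 and Kdm6a were lower in every PFNA library than in every control, and Suz12 did not pass the test. Each line gives the 250 bases before the RefSeq start site on GRCm38.p6, 5′ to 3′ on the gene's strand, and capitals mark matches to the motifs searched. The Jarid2 window is chr13:44730524-44730773 (plus strand), the Kdm6a window chrX:18162325-18162574 (plus strand) and the Suz12 window chr11:79992856-79993105 (plus strand).
Jarid2: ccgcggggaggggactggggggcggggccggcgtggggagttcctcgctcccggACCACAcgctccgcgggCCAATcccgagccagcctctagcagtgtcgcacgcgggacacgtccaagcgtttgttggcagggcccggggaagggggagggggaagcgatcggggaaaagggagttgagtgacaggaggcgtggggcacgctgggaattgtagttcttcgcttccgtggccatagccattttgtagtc
Kdm6a: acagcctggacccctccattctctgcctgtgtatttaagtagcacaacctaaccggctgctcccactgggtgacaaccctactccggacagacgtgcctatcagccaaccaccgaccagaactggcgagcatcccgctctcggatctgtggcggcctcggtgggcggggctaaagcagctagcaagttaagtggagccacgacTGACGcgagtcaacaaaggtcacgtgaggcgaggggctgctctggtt
Suz12: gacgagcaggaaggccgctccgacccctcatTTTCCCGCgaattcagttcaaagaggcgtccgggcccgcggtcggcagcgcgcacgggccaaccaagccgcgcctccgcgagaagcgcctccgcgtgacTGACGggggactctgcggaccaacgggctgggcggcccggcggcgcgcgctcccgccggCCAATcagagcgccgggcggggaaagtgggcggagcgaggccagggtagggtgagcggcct
The motifs were searched on both strands as the CRE TGACGTCA, its shorter form TGACG (which every full CRE also contains), AP-1 TGANTCA, RUNX TGTGGT, E2F TTTCCCGC and NFY CCAAT. The Jarid2 window held the RUNX letters on the opposite strand, the first printed base of the match being 196 bases before the start site, and the NFY letters at 179, counted likewise. Another RefSeq start site of Jarid2, not shown, had the window chr13:44731021-44731270. That window held the shorter CRE form at 211 bases before its start and none of the other motifs. The Kdm6a window held the shorter CRE form at 47 bases before the start. The Suz12 window held an E2F match at 219, a shorter CRE form at 120 and an NFY match at 61. Of 32851 RefSeq promoters of the same length, 14.05% held the RUNX letters, 33.8% the NFY letters, 17.8% the shorter CRE form, 0.895% the E2F letters, 6.75% the AP-1 letters and 1.55% the full CRE, so the E2F letters of Suz12 were the least common of the matches shown. Promoters of 9 of the 10 members were matched by symbol, and Kdm6b was without an entry.

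Ovulation libraries held totals of 10.6 to 19.5 in units of 1e+06 counts (median 14.6), and the depth of the maturation libraries is unknown because their values are TPM (transcript abundances per length, scaled to a fixed total). The granulosa markers Foxl2, Fshr, Cyp19a1, Inha, Inhba, Inhbb, Amh, Nr5a2, Gja1 and Fst were all detected, 10 of 10 in both windows, with summed levels of 43502 to 66229 TPM in maturation controls and 17040 to 23539 CPM in ovulation controls. With PFNA 6 of 10 were lower and none higher in the maturation window (median log2 fold change -0.66, summed levels 16554 to 49665 TPM). In the ovulation window 7 were higher and 2 lower (median 1.11, summed levels 17584 to 25547 CPM). Fshr, the receptor of follicle-stimulating hormone, fell by 1.24 and rose by 2.20 on the log2 scale, and the part of these shifts in the member values was not tested. PFNA changed a large share of the transcriptome after hCG. By edgeR's quasi-likelihood test 73.2% of 13441 genes had a Benjamini-Hochberg adjusted p under 0.05, which is what called, rose and fell mean below, against 29.4% of 13712 genes by limma in the maturation window. Bulk libraries cannot tell fewer cells of a type from less RNA per cell.

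Jarid2 was far lower with PFNA in the ovulation window. The 12 controls held from 133 to 280 TMM-normalized CPM (counts scaled to a fixed library total) with a median of 159, and the 11 PFNA libraries from 23.8 to 41.3 CPM with a median of 31.1. No PFNA library reached the lowest control, and the highest value, 280 CPM, belonged to control replicate 4. The estimated count of Jarid2 was 1886 to 2850 per control library and 333 to 656 per PFNA library, so its counting error was small beside the difference. Its mean was 172 ± 40.3 CPM (SD, n = 12) in controls and 31.0 ± 5.59 CPM (SD, n = 11) with PFNA, 5.53-fold lower in the edgeR fit, a log2 fold change of -2.47 (SE 0.12, 95% interval -2.71 to -2.22). JARID2 is the subunit that helps to bring PRC2 to chromatin and tunes its activity, and its gene lies on chromosome 13 from 44730774 to 44921643 in the ovulation table. Among 13441 genes tested, 174 (1.29%), Jarid2 included, had a log2 fold change at least as low, with no condition on p. Jarid2 was chosen for being lower here, so this rank is only a description.

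In the maturation window Jarid2 was low in both groups. Controls ranged from 1.63 to 3.03 TPM (median 2.73) and PFNA libraries from 1.998 to 3.21 TPM (median 2.64). The groups overlapped over most of their range, 2 of 10 PFNA libraries lay above every control and none lay below. The log2 fold change was 0.06 (SE 0.088, 95% interval -0.13 to 0.24) with 1 TPM added before the logarithm, which makes a change look smaller at such low levels. The difference of the PFNA effects between windows, ovulation minus maturation on log2(value + 1) scales, was -2.47 (95% interval -2.75 to -2.19), given as a description.

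**Figure D1:**
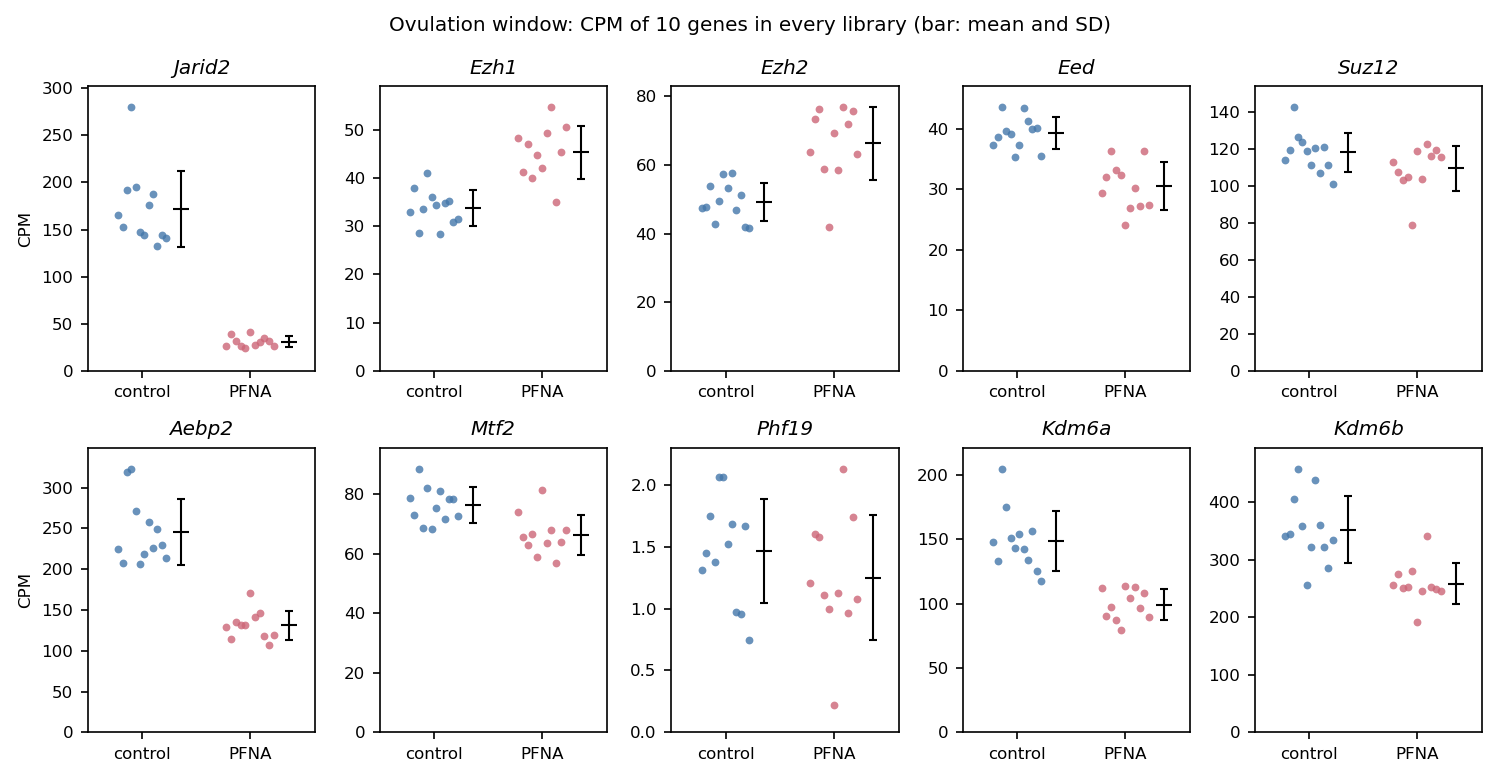
Level of each of the 10 genes in the ovulation window in TMM-normalized CPM (linear axes from 0, 1 panel per gene), 1 point per library for 12 controls and 11 PFNA libraries, with the mean and SD as a bar. The Jarid2, Aebp2 and Kdm6a groups do not overlap, Ezh1 and Ezh2 are higher with PFNA, and the single low Ezh2 and Suz12 points with PFNA are replicate 5.

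Aebp2, the zinc-finger subunit found with JARID2 in the same form of PRC2, also fell after hCG. Its controls held 206 to 323 CPM (median 227) and its PFNA libraries 108 to 171 CPM (median 131). All 11 PFNA libraries lay below every control. The edgeR fit put Aebp2 1.87-fold lower with PFNA (log2 fold change -0.90, SE 0.087, adjusted p = 9.02e-10 by edgeR). The Aebp2 groups overlapped fully in the maturation window, with 10.996 to 17.0 TPM in controls and 12.3 to 16.6 TPM with PFNA (log2 fold change 0.04, 95% interval -0.10 to 0.17, limma adjusted p = 0.703). The effects differed between windows by -0.93 (SE 0.11, limma adjusted p = 2.68e-10).

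Of the Polycomb-like members, Mtf2 changed by a small step and Phf19 was scarce. Mtf2 fell in the ovulation window, where controls had a mean of 76.4 ± 5.95 CPM (SD, n = 12) and PFNA libraries a mean of 66.4 ± 6.80 CPM (SD, n = 11), with 9 of 11 PFNA libraries below every control and the highest PFNA library, at 81.5 CPM, inside the control range. This small step of -0.20 on the log2 scale (SE 0.058) passed edgeR's test with an adjusted p of 0.00294. For Mtf2 the maturation means were 10.9 ± 0.656 TPM (SD, n = 11) and 11.6 ± 1.05 TPM (SD, n = 10), a difference that did not pass (log2 fold change 0.08, 95% interval -0.03 to 0.18, limma adjusted p = 0.290). The effects differed by -0.28 (limma adjusted p = 0.00156). Mtf2 shares 395 exon bases with Tmed5 on the opposite strand, and with the use of strand in counting not given, reads of the pair cannot be told apart there. Exon bases are also shared on the opposite strand by Eed (261 with E230029C05Rik) and Kdm6b (286 with Kdm6bos). The same limit holds for Suz12 (178 with Gm26563) and Ezh2 (174 with Gm26625).

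Phf19, the other Polycomb-like member, stood near the detection limit. Its estimated count was 3 to 33 per ovulation library, and controls at 0.750 to 2.06 CPM overlapped with PFNA libraries at 0.220 to 2.13 CPM. A difference was not detectable at this depth (log2 fold change -0.23, 95% interval -0.76 to 0.31, edgeR adjusted p = 0.438). Its mean over all maturation libraries was below the minimum of 1 TPM, so it was not tested in the planned fit. Controls held 0.583 to 1.89 TPM (median 1.48) and PFNA libraries 0.144 to 1.35 TPM (median 0.442), with 7 of 10 PFNA libraries below every control. Without the minimum its log2 fold change was -0.62 (SE 0.12, limma adjusted p = 0.00122).

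The catalytic subunits parted between the windows. Ezh1 rose with PFNA in both. Maturation controls held 5.61 to 12.3 TPM (median 9.53) and PFNA libraries 9.47 to 18.4 TPM (median 14.1), with 7 of 10 PFNA libraries above every control (log2 fold change 0.51, SE 0.12, limma adjusted p = 0.00227). After hCG controls held 28.3 to 41.0 CPM (median 34.0) and PFNA libraries 35.1 to 54.7 CPM (median 45.4), with 9 of 11 above every control (log2 fold change 0.42, SE 0.073, edgeR adjusted p = 1.22e-05). The difference of its effects between windows was -0.10 (95% interval -0.38 to 0.17, limma adjusted p = 0.512), which leaves room for a difference of either sign.

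Ezh2 fell with PFNA in the maturation window and rose in the ovulation window. Its maturation controls held 5.80 to 9.16 TPM (median 7.95) and its PFNA libraries 3.49 to 7.58 TPM (median 4.76). PFNA replicates 1, 2 and 10, at 7.58, 6.70 and 6.60 TPM, lay among the controls, and the other 7 lay below every control. The log2 fold change was -0.55 (SE 0.10, limma adjusted p = 0.000514). After hCG its controls held 41.6 to 57.7 CPM (median 48.6) and its PFNA libraries 41.9 to 76.9 CPM (median 69.4). Here 10 of 11 PFNA libraries lay above every control, and replicate 5 at 41.9 CPM lay at the low end of the controls (log2 fold change 0.43, SE 0.085, edgeR adjusted p = 7.94e-05). The effects differed between windows by 0.96 (SE 0.14, limma adjusted p = 5.43e-08).

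As a description within each library, the ratio of Ezh1 to Ezh2 ran from 0.895 to 1.68 in maturation controls (median 1.16) and from 1.34 to 4.73 with PFNA (median 2.85), on the TPM scale. In the ovulation window, on the CPM scale and so not per length, it ran from 0.491 to 0.829 in controls (median 0.716) and from 0.488 to 1.07 with PFNA (median 0.681). The ratio was thus mostly higher with PFNA during maturation, and after hCG, where both genes were higher, the medians lay close together.

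Of the shared core, Suz12 was lower in the maturation window and Eed in the ovulation window. Suz12, the scaffold subunit, had a mean of 25.5 ± 3.42 TPM (SD, n = 11) in maturation controls and 19.6 ± 2.27 TPM (SD, n = 10) with PFNA, with libraries at 17.4 to 29.3 TPM in the former and 16.5 to 23.6 TPM in the latter. It fell by 0.36 on the log2 scale (SE 0.081, limma adjusted p = 0.00206). Apart from control replicate 11, at 17.4 TPM, the controls began at 22.4 TPM, above all PFNA libraries but replicate 1 at 23.6 TPM. After hCG Suz12 was at 118 ± 10.6 CPM (SD, n = 12) and 109 ± 12.2 CPM (SD, n = 11), with a log2 fold change of -0.11 (95% interval -0.24 to 0.02, edgeR adjusted p = 0.129). The effects differed by 0.25 (limma adjusted p = 0.0335), a call that was lost when maturation control replicate 1 or 6, maturation PFNA replicate 7 or 9 or ovulation PFNA replicate 8 was left out (adjusted p 0.0503 to 0.0582).

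Eed, the subunit that binds the methyl mark, fell after hCG. The mean was 39.3 ± 2.69 CPM (SD, n = 12) in controls and 30.5 ± 3.96 CPM (SD, n = 11) with PFNA, with 9 of 11 PFNA libraries below every control (log2 fold change -0.36, SE 0.068, edgeR adjusted p = 3.48e-05). Its maturation means were 11.6 ± 0.644 TPM (SD, n = 11) and 10.5 ± 1.30 TPM (SD, n = 10), with a log2 fold change of -0.14 (95% interval -0.26 to -0.01, limma adjusted p = 0.0903). Without PFNA replicate 1 or 2 it passed (log2 fold change -0.16 and -0.17, limma adjusted p = 0.0443 and 0.0264), and with the oocyte marker share as a covariate it was at -0.05 (limma adjusted p = 0.610). The effects differed between windows by -0.23 (limma adjusted p = 0.0234), which no longer passed without those 2 libraries together (-0.17, adjusted p = 0.0757) or with median-ratio size factors (-0.17, adjusted p = 0.0899).

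**Figure D2:**
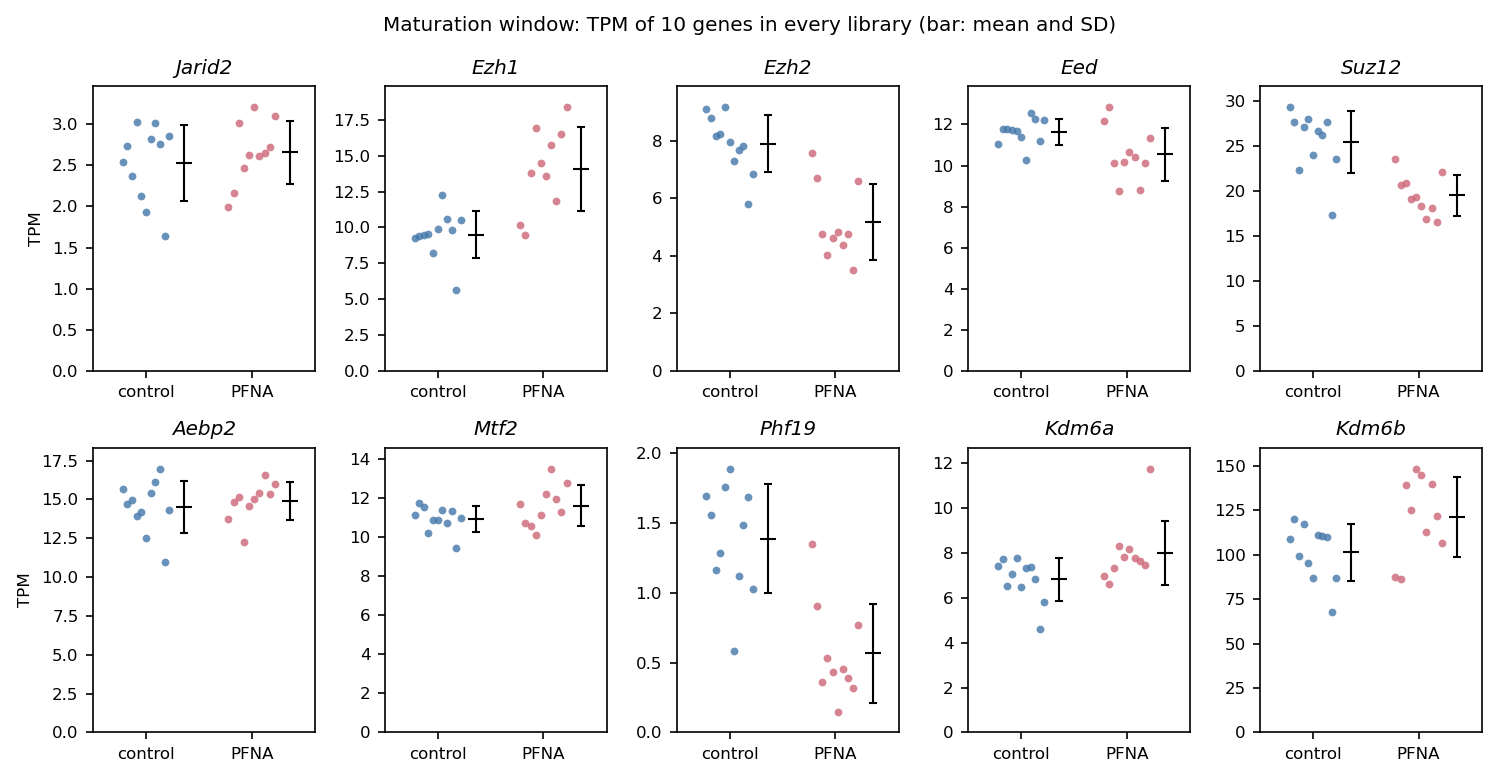
Level of each of the 10 genes in the maturation window in TPM (linear axes from 0, 1 panel per gene), 1 point per library for 11 controls and 10 PFNA libraries, with the mean and SD as a bar. Ezh1 is higher and Ezh2 and Suz12 are lower with PFNA, Jarid2 and Aebp2 overlap, and PFNA replicates 1, 2 and 10 are the 3 highest PFNA points for Ezh2, Eed and Phf19.

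Both H3K27 demethylases fell after hCG. Kdm6a, on chromosome X from 18162575 to 18279936, had 118 to 205 CPM in controls (median 145) and 79.9 to 114 CPM with PFNA (median 97.0). All 11 PFNA libraries lay below every control (log2 fold change -0.58, SE 0.081, edgeR adjusted p = 5.28e-07). Kdm6b, which is induced by many signals in other cells, had 256 to 458 CPM in controls (median 343) and 192 to 341 CPM with PFNA (median 253). The groups overlapped, since 8 of 11 PFNA libraries lay below every control but replicates 2 and 5, at 276 and 281 CPM, lay above the lowest control and replicate 8, at 341 CPM, lay inside the control range (log2 fold change -0.45, SE 0.090, edgeR adjusted p = 8.27e-05).

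Neither demethylase passed the test in the maturation window. Kdm6a was at 6.81 ± 0.937 TPM (SD, n = 11) in controls and 7.97 ± 1.42 TPM (SD, n = 10) with PFNA (log2 fold change 0.20, 95% interval 0.02 to 0.38, limma adjusted p = 0.0938). It passed with median-ratio size factors (0.17, limma adjusted p = 0.0497) and with the oocyte marker share as a covariate (0.33, limma adjusted p = 0.0191). Kdm6b was at 101 ± 15.8 TPM (SD, n = 11) and 121 ± 22.7 TPM (SD, n = 10), with a log2 fold change of 0.25 (95% interval 0.02 to 0.48, limma adjusted p = 0.0959). It passed without PFNA replicate 1 or 2, which were its 2 lowest PFNA libraries at 87.2 and 86.4 TPM (log2 fold change 0.30 in each fit, limma adjusted p = 0.0368 and 0.0348). The oocyte covariate lowered it to 0.12 (limma adjusted p = 0.515). The effects differed between windows by -0.77 for Kdm6a (limma adjusted p = 2.45e-07) and -0.69 for Kdm6b (limma adjusted p = 4.68e-05).

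Counted together, 7 of the 9 members other than Jarid2 were called in the ovulation window, 2 higher and 5 lower, where 73.2% of all genes tested were called, 38.0% higher and 35.2% lower. Of 8 tested in the maturation window 3 were called, 1 higher and 2 lower, where 29.4% of all genes were called, 13.3% higher and 16.1% lower. The PFNA effect differed between windows for 7 of 8, against 67.7% of 11215 genes. The ovulation effect exceeded the maturation effect for 2 of these 7 (32.0% of all genes) and was below it for 5 (35.6% of all genes). Groups did not overlap for Aebp2 and Kdm6a among these 9 in the ovulation window, both lower, as for 26.0% of all genes, 11.9% higher and 14.1% lower, and for none in the maturation window, as for 1.28%, of which 0.489% were higher and 0.788% lower with PFNA. The median log2 fold change was -0.23 over the 9 genes in the ovulation window and 0.06 over the 8 in the maturation window, beside 0.04 and 0.02 over all genes tested. The set was chosen on these contrasts, so nothing is read from these shares.

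**Figure D3:**
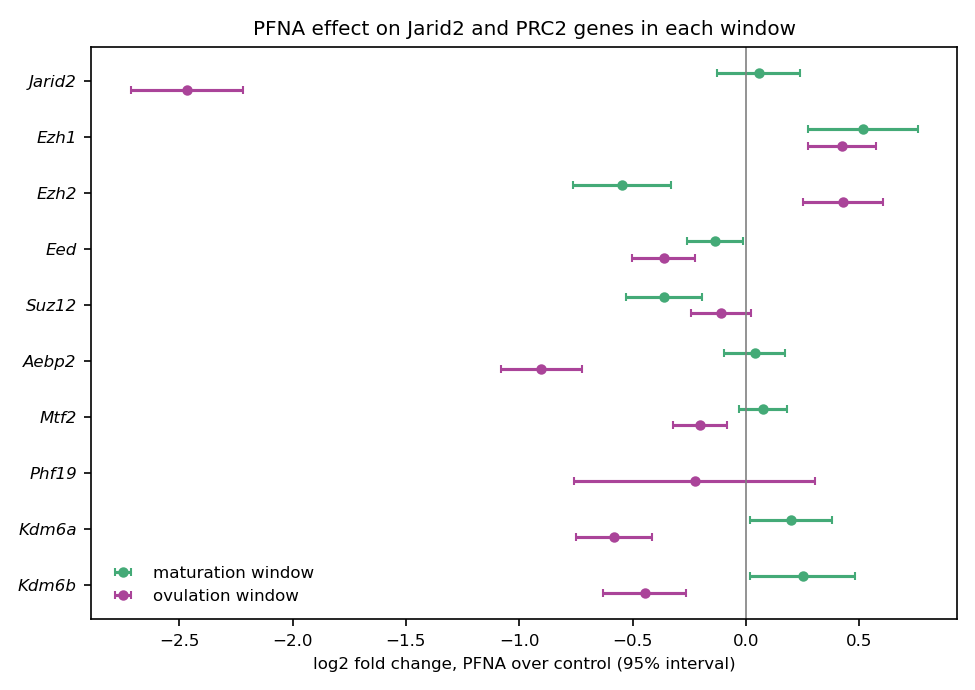
Log2 fold change of PFNA over control (x axis) with its 95% interval for each member (y axis) in the maturation window (limma, log2(TPM + 1)) and the ovulation window (edgeR). Jarid2 stands at -2.47 in the ovulation window and 0.06 in the maturation window, Ezh1 is above 0 in both, Ezh2 has opposite signs, and Phf19 has no maturation value because it was not tested there.

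By level per transcript length, Kdm6b stood first and Phf19 last in all 4 groups. The maturation controls ran, by median TPM, Kdm6b at 109, Suz12 at 26.6, Aebp2 at 14.7, Eed at 11.7, Mtf2 at 10.95, Ezh1 at 9.53, Ezh2 at 7.95, Kdm6a at 7.05, Jarid2 at 2.73 and Phf19 at 1.48. Neighbours from Aebp2 to Kdm6a overlapped in their library ranges, whereas Kdm6b stood clear of Suz12, and Suz12 at 17.4 to 29.3 TPM stood clear of Aebp2 at 10.996 to 17.0 TPM. With PFNA Ezh1 moved from the 6th to the 4th place and Jarid2 kept the 9th. In the ovulation window, with CPM divided by the GENCODE M21 exon length in kb, Jarid2 was 5th of the 10 members in controls (median 16.4 CPM per kb, 13.7 to 28.8) and 9th with PFNA (median 3.21, 2.45 to 4.25). In controls its range overlapped those of its neighbours Kdm6a and Mtf2, and with PFNA it did not reach that of Ezh1, which began at 4.71 CPM per kb. With the longest coding transcript as the length Jarid2 was 4th in controls. The gene models of the ovulation values are not given, and their gene starts matched GENCODE M21 for only 37.2% of symbols, against 64.4% for RefSeq. These lengths, and the places that rest on them, are therefore approximate.

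Oocyte and proliferation markers moved with several of these results. With PFNA 14 of 15 oocyte markers tested were lower in the maturation window, and the 18 markers together held 0.0188% to 0.0298% of TPM in controls and 0.000464% to 0.0497% with PFNA. The share was 0.0194%, 0.0155% and 0.0497% in PFNA replicates 1, 2 and 10 and at most 0.00147% in the others, and the median PFNA level was 0 for Zp2 and Zar1, whose control medians were 6.22 and 30.9 TPM. It was also 0 for Ddx4, Figla and Sohlh1, which had control medians of 0.1, 0.33 and 0 TPM. The same replicates 1, 2 and 10 held the highest PFNA levels of Ezh2, Eed and Phf19. All 14 proliferation genes tested, among them Mki67, Top2a and Pcna, were lower, with summed levels of 739 to 1174 TPM in controls and 227 to 848 TPM with PFNA, the highest again in replicates 1, 2 and 10. Adding that share to the fit as a covariate gave Ezh2 a log2 fold change of -0.35 (limma adjusted p = 0.0231). Suz12 was at -0.25 and no longer passed (limma adjusted p = 0.0521), and its difference between windows was 0.08 (limma adjusted p = 0.583). In that fit 9 of 15 oocyte markers and all 14 proliferation genes tested were still lower with PFNA (median log2 fold change -0.99 and -1.36). The covariate thus did not remove the oocyte difference, and outside PFNA replicates 1, 2 and 10 the share parted the groups. The fit therefore cannot tell lost oocyte transcripts from PFNA in the Ezh2 and Suz12 values, and their part was not tested otherwise. Phf19 was not in that fit. The part of fewer dividing cells in the Ezh2, Suz12 and Phf19 values was not tested.

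After hCG 9 of 16 oocyte markers tested were higher with PFNA and none lower, and the share was 0.00981% to 0.0476% in controls and 0.00588% to 0.0695% with PFNA. PFNA replicate 5 had the lowest share, the lowest Ezh2 and the lowest Suz12 of its group. Proliferation genes were higher for 9 and lower for 1 of 14 tested, with summed levels of 569 to 940 CPM in controls and 475 to 1348 CPM with PFNA, again lowest in replicate 5. Under the same covariate Ezh2 had a log2 fold change of 0.29 (edgeR adjusted p = 0.00846) and Aebp2 of -0.77 (edgeR adjusted p = 6.11e-08). Jarid2 moved between -2.50 and -2.42 over 6 alternatives in this window, apart from leaving out libraries in turn. Other cell types were also represented: the 5 endothelial markers were all higher (summed 30.0 to 110 CPM in controls, 39.1 to 319 CPM with PFNA), theca markers were higher for 5 and lower for 1 of 8 (143 to 1500 CPM and 726 to 2339 CPM), and leukocyte markers were higher for 1 of 5 (1.35 to 98.2 CPM and 2.79 to 132 CPM). Their part in the member values was not tested.

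**Figure D4:**
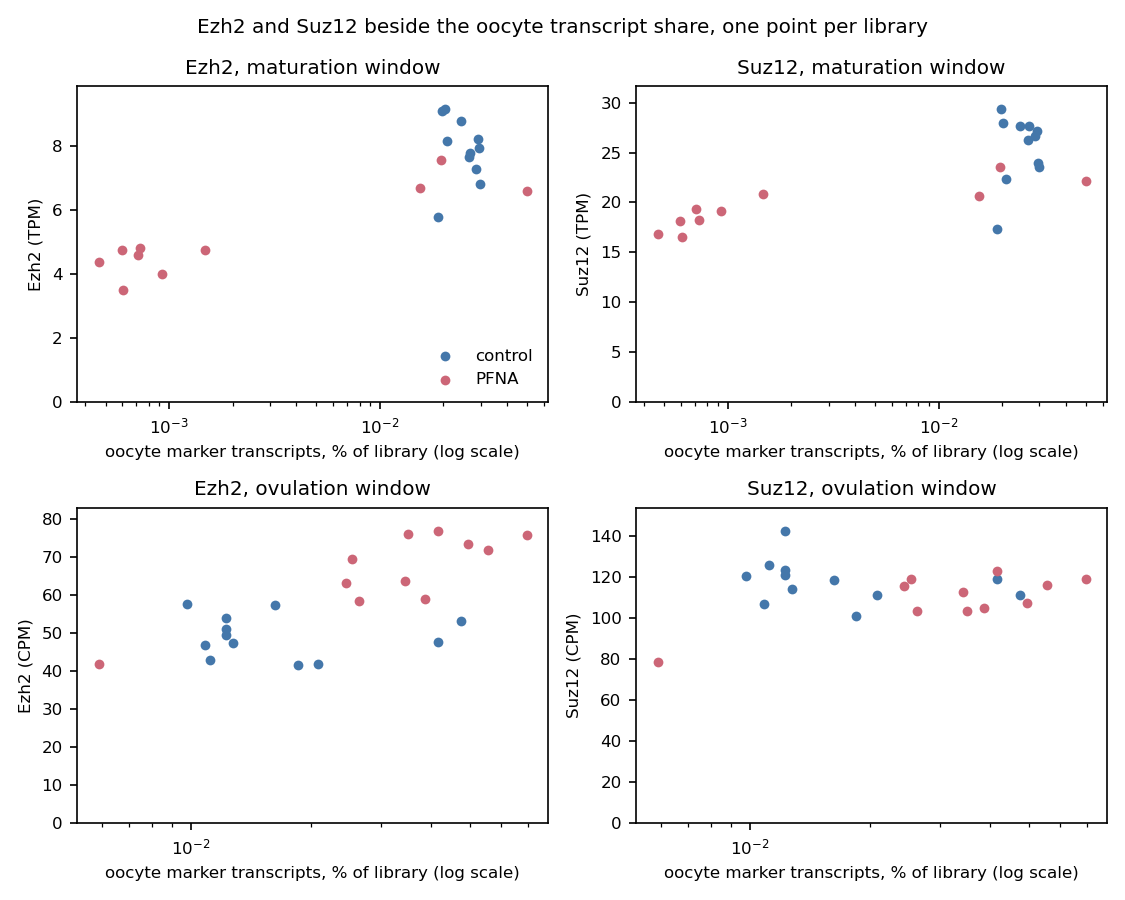
Ezh2 and Suz12 level (y axis, TPM or CPM) against the share of oocyte marker transcripts in each library (x axis, percent, log scale), with 1 point per library and colours for control and PFNA. In the maturation window PFNA replicates 1, 2 and 10 lie at shares of 0.0155% to 0.0497% beside the controls, and in the ovulation window PFNA replicate 5 lies alone at 0.00588%.

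The rest of the Polycomb system was read from gene lists chosen by function. The counts below are to be read against all genes tested, of which 13.3% rose and 16.1% fell in the maturation window and 38.0% rose and 35.2% fell in the ovulation window. Among 6 other PRC2 subunits tested, none was called in the maturation window, where Rbbp7, Rbbp4 and Lcor had log2 fold changes of -0.31, -0.11 and 0.14 (limma adjusted p = 0.0586, 0.173 and 0.401). After hCG 2 rose and 3 fell, where 73.2% of all genes were called. Epop, which links PRC2 to elongin, fell from 17.4 to 4.61 CPM (log2 fold change -1.92, edgeR adjusted p = 3.57e-10), and Lcor, of the locus that also encodes a PRC2-binding isoform, fell by 0.76 on the log2 scale. Phf1, the third Polycomb-like gene, rose from 27.8 to 48.7 CPM (log2 fold change 0.81, edgeR adjusted p = 2.03e-08).

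PRC1, the complex that ubiquitinates histone H2A and reads the PRC2 mark, had more subunits lower than higher after hCG. Of 23 subunits 16 fell and 4 rose, with a median of -0.34, where 35.2% of all genes fell and 38.0% rose. The 3 of smallest p were Bcorl1 (log2 fold change -1.44, 78.7 to 29.0 CPM), Cbx6, a chromobox reader of the mark (-1.25, 53.3 to 22.5 CPM), and Pcgf3 (-0.73, 106 to 64.3 CPM), each called by edgeR. Of 22 tested in the maturation window 4 rose and 1 fell. Cbx7, another chromobox reader, rose from 0.930 to 1.92 TPM (log2 fold change 0.58, made smaller by the 1 TPM added before the logarithm). Its control mean lay below the minimum of 1 TPM, so it was tested through its PFNA group and nothing is read from its call. Phc3 rose by 0.38 and the variant-complex subunit Pcgf1 fell by 0.31 on the log2 scale. The H2A deubiquitinase complex, which removes the PRC1 mark, had 6 of 8 genes lower and none higher after hCG (median -0.44), where 35.2% of all genes fell and 38.0% rose. By smallest p these were Asxl2 (-1.03), Foxk2 (-0.57) and Hcfc1 (-0.46). During maturation 1 of 7 rose and 1 fell, Asxl1 at 0.32 and Foxk2 at -0.34, and Foxk1 at 0.29 did not pass (limma adjusted p = 0.0574).

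Partners of the demethylases were counted against the same shares, 35.2% of all genes lower and 38.0% higher after hCG. Of 9 genes of the complex that holds KDM6A with the MLL3 and MLL4 methyltransferases, 6 fell and 2 rose after hCG (median -0.35), with Paxip1 at -0.82, Rbbp5 at -0.79 and Kmt2d at -0.83. Kmt2d, the methyltransferase MLL4, went from 621 to 349 CPM. During maturation Kmt2c rose (0.49) and Paxip1 and Dpy30 fell (-0.24 and -0.21). Of 5 genes for H3K27 acetylation, which excludes methylation of the same residue, 4 fell and none rose after hCG (median -0.64), among them the acetyltransferases Ep300 (-0.66) and Crebbp (-0.71) and the deacetylase Hdac3 (-0.64). During maturation Ep300 rose (0.35, limma adjusted p = 0.0492), Hdac1 fell (-0.23) and Crebbp at 0.26 did not pass (limma adjusted p = 0.0741).

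The Jumonji demethylases, the wider family of Jarid2 and the Kdm6 genes, had 10 of 15 genes lower and 3 higher after hCG (median -0.25), where 35.2% of all genes fell and 38.0% rose, with Kdm2a at -0.65, Kdm4b at -0.51 and Jmjd6 at -0.54. Of the same 15 genes 5 rose and 1 fell in the maturation window (median 0.21), where 13.3% of all genes rose and 16.1% fell, with Kdm5b at 0.49, Kdm4c at 0.31 and Jmjd6 at -0.26. Hox and Cdkn2 genes, classic targets of PRC2 silencing, were mostly too low to test. Of 41 listed, 14 were tested in the maturation window, where Cdkn2b rose by 0.52 and Hoxd4 by 0.68 on the log2 scale (limma adjusted p = 0.0211 and 0.0496) and Hoxd9 at 0.91 did not pass (limma adjusted p = 0.0977). After hCG 11 were tested, Hoxd3 rose from 0.425 to 1.64 CPM and Hoxd4 from 1.06 to 3.30 CPM (edgeR adjusted p = 0.000952 and 0.00682), and Hoxb9 at a log2 fold change of 1.65 did not pass (edgeR adjusted p = 0.0537). The genes that passed the filter on low counts could do so through the group where they are high. These counts therefore describe only the genes tested, and nothing is read from the p-values of low genes such as Hoxd3.

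**Figure D5:**
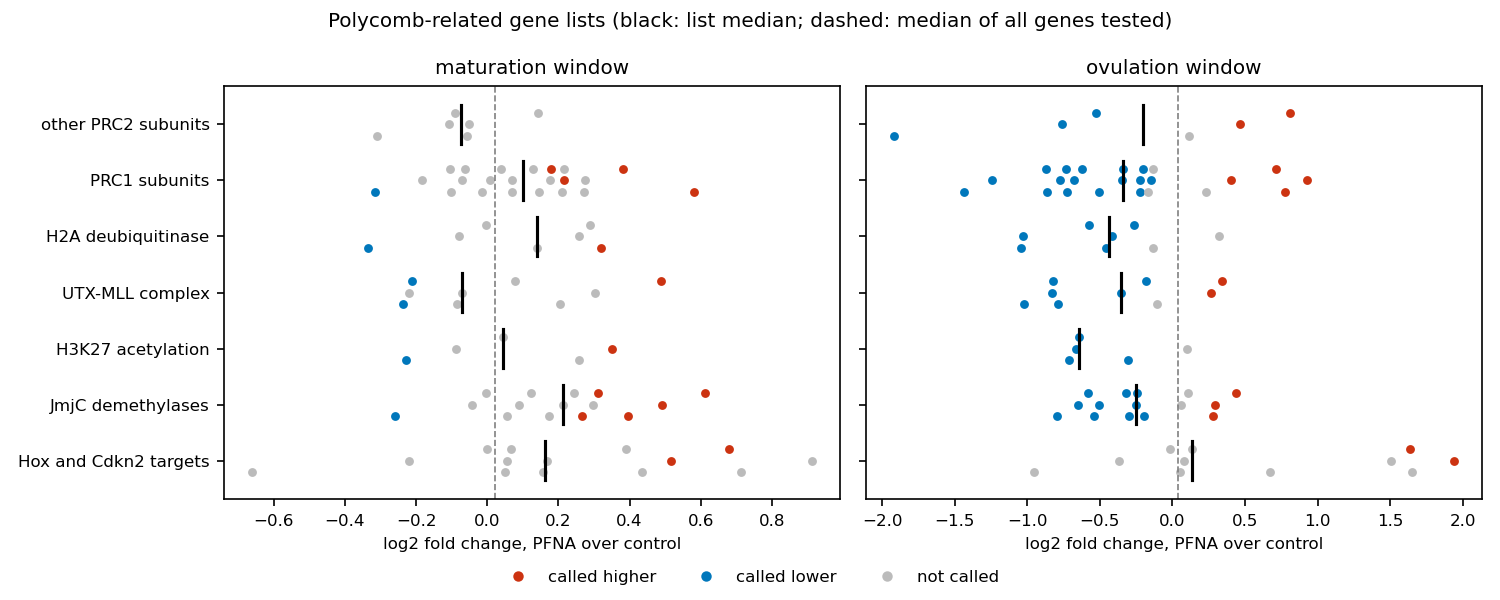
Log2 fold change of PFNA over control (x axis) for each tested gene of 7 Polycomb-related lists (y axis) in the maturation and ovulation windows, coloured by the call, with the list median in black and the median of all genes tested dashed. In the ovulation window the medians of PRC1 (-0.34), the H2A deubiquitinase (-0.44), the UTX-MLL complex (-0.35) and H3K27 acetylation (-0.64) lie left of the median of all genes (0.04), and the x axes of the panels differ.

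Among libraries of a group, the transcripts that varied most like Jarid2 were ranked over the 23 ovulation libraries after removing each group's mean, among 9017 genes with a mean of at least 10 CPM. The 5 most alike were Dcaf12 (Pearson r 0.82, Spearman rho 0.80), Tox4 (0.81, 0.76), Fem1b (0.80, 0.81), Tchhl1 (0.80, 0.81) and Mpzl2 (0.80, 0.80), described without a p. Over the 21 maturation libraries their r with Jarid2 was 0.56, 0.46, 0.44, 0.39 and -0.00. Their log2 fold changes with PFNA after hCG had both signs, at -0.79, -0.12, -1.60, 1.22 and -2.20. Of the members, Aebp2 (r 0.52), Suz12 (0.49) and Kdm6a (0.49) varied most like Jarid2 in the ovulation window with both groups pooled. Taken apart, ovulation controls and PFNA libraries had r of 0.76 and 0.14 for Aebp2, 0.47 and 0.54 for Suz12 and 0.53 and 0.42 for Kdm6a. For Kdm6b r was 0.76 and -0.33, and for Ezh2 -0.15 and 0.71, so the groups did not always go together. In the maturation window Kdm6b (0.75), Ezh1 (0.70) and Aebp2 (0.68) varied most like Jarid2. Maturation control replicate 11 held the lowest control level of Jarid2, Kdm6b, Ezh1 and Aebp2 (1.63, 67.8, 5.61 and 10.996 TPM). Among maturation controls alone, r with Jarid2 was 0.82 for Kdm6b, 0.77 for Ezh1 and 0.79 for Aebp2. Without the 2 controls farthest from the Jarid2 median it was 0.43, 0.66 and 0.19. All such values share library depth and composition.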

How the data were processed

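Poly-A RNA of 44 libraries was sequenced, with cDNA primed by random hexamers, per the labels' protocols. The submitters' processing notes name Partek, Bowtie2 and HISAT2 without a role, and the build, annotation and use of strand are not given in the sources used here. The maturation values deposited by the authors are TPM although they are named as raw counts, since each library sums to 1000000 and 83.5% of values are not whole. The ovulation values deposited by the authors are estimated counts (18.5% not whole), with totals of 10.6 to 19.5 in units of 1e+06 per library, and were rounded. Gene starts matched GENCODE M21 for 99.4% of matched symbols in the maturation table and 37.2% in the ovulation table, where RefSeq GRCm38.p6 gave 64.4%, so levels were not compared across tables. Columns were joined to samples by title, and the column CN6, which matched no title, was taken as maturation control replicate 6. Maturation control replicate 4 was not analysed here. Within each group no pair of libraries was identical (chi-square per degree of freedom at least 7.54 in the ovulation window, correlation at most 0.981 in the maturation window). Pairs of a control and a PFNA library were not compared in this way.

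Counts were tested with edgeR 4.0.16 (R 4.3.3, filterByExpr, TMM, robust quasi-likelihood), and TPM with limma 3.58.1 on log2(TPM + 1) (trend, robust), leaving out genes whose mean was below 1 TPM. The difference between windows is the limma effect on log2(TMM CPM + 1) minus that on log2(TPM + 1), with Satterthwaite's degrees of freedom. Each fit used the whole table, with Benjamini-Hochberg adjustment over it and a threshold of 0.05. The code was also run on simulated data in which few genes changed. For the difference between windows, simulated effects were drawn from the same errors that the test uses. These runs check the code and do not measure error rates in these data. Members, lists and tests were chosen with earlier results of these data known. All members were named, with the 3 genes of smallest p per list and window and the 5 genes most like Jarid2. Alternatives were other pseudocounts (0.1, 0.5), no filter, median-ratio size factors, DESeq2 1.42.0, limma on counts, the oocyte marker share as a covariate, a replicate block and leaving out libraries.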

Additional observations from a re-analysis of the deposited data

Results flagged for a closer look

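The PFNA effect differed between the windows, by the test of the difference itself, for 7 members. Ovulation minus maturation on the log2 scale, it was 0.96 for Ezh2, 0.25 for Suz12, -0.23 for Eed, -0.93 for Aebp2, -0.28 for Mtf2, -0.77 for Kdm6a and -0.69 for Kdm6b (limma within each table, adjusted p from 2.68e-10 to 0.0335), where 67.7% of all genes tested differed. The windows were deposited as separate tables in differing units and gene models, so a window and a technical difference that changes the PFNA effect cannot be told apart.

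In the PFNA group of the maturation window, the level of Kdm6a in replicate 10 was 11.7 TPM, and the next highest library had 8.28 TPM. The gap, as a share of the group's range, was above Dixon's 95% critical value for 10 samples. The levels of 10 members were searched in this way, among which chance gives 0.5, and the groups of more than 10 libraries were not searched.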

How the results depend on the processing

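In the ovulation window the same 7 members other than Jarid2 were called under DESeq2, without a filter, with median-ratio size factors, with limma on log2(CPM + 1), with the oocyte covariate and in each of the 23 fits without a library, while 8990 to 12190 genes were called in all. In the maturation window 3 members were called, 5 with median-ratio size factors (Phf19 and Kdm6a added), 6 without PFNA libraries 1 and 2 (Eed, Kdm6a and Kdm6b added) and 3 to 5 when each of the 21 libraries was dropped in turn, with 5 without PFNA replicate 1 or 2. All genes called there numbered 4030, with 3586 to 4588 over the 21 fits that dropped a library. They numbered 4479 of 13707 with median-ratio size factors and 5201 of 13725 without PFNA libraries 1 and 2, so the calls over all genes rose there too. Phf19 was added to the called members without maturation control replicate 8 or without any single one of maturation PFNA replicates 3 to 10. In these fits, and with median-ratio size factors, its mean reached the minimum of 1 TPM through the controls, where it was higher. Its means over all libraries were 1.39 TPM in controls and 0.565 TPM with PFNA, so nothing is read from these added calls. With the oocyte covariate 58.8% of the called genes of that window were higher, against 45.3% without it. For the difference between windows 7 members were called and 6 to 8 over 44 fits without a library. Leaving out maturation PFNA libraries 1 and 2 there was chosen after seeing the data.

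Same-numbered libraries did not vary together: correlations of their deviations were -0.14 to 0.17 over 9 pairs in the maturation window and -0.19 to 0.07 over 11 pairs in the ovulation window, and no library correlated best with its own number. With a replicate block 2891 genes were called in the maturation window, 9298 in the ovulation window and 7278 for the difference, and the calls of the members were the same. In the maturation window the block lowered the Kdm6a change from 0.20 to 0.12 (limma adjusted p = 0.378) and the Kdm6b change from 0.25 to 0.16 (limma adjusted p = 0.358). The unknown depth of the TPM values and counts as low as 3 for Phf19 limit the precision of the low members. The causes of these changes were not tested.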
